A study of Mus musculus with 6 samples.

Results

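The n14-GC-7 cluster is a small group of neurons of the mouse olfactory bulb that the study names as granule cells. The study proposes that this cluster likely holds mature adult-born neurons. Slc32a1 and Tpbg are taken here as its markers, and neither is particular to it. Its 679 cells were taken by their cluster name in the deposited annotation of neurons, which holds 21746 cells in 18 types, 12 of them adult-born with 16302 cells. Single-cell RNA sequencing was run on 6 libraries of dissociated olfactory bulb from C57BL/6NJ mice aged 14 weeks, each made from a pool of 3 mice. Each condition had 2 libraries. Naris-occluded bulbs came from mice deprived of smell on one side for 6 weeks. Trained bulbs came from mice that learned odor discrimination for 6 weeks. Control bulbs are labelled as control, with no manipulation named. The study's text calls the controls naive, and elsewhere names the open side of the occluded mice as the control. Males were pooled for replicate 1 and females for replicate 2, and the UMIs (unique molecular identifiers, 1 per captured transcript) of Xist and Ddx3y in n14 matched this in 6 of 6 libraries. The pools are separate samples of a condition. With these 2 accounts of the controls, whether control and occluded pools shared mice cannot be told from these sources.

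Granule cells are the most numerous interneurons of the bulb. They have no axon, and release GABA from their dendrites onto mitral and tufted cells, the output neurons, at synapses where the same mitral cell dendrite excites them through glutamate receptors. New granule cells reach the bulb throughout adult life from the subventricular zone. Slc32a1 encodes the transporter that loads GABA into synaptic vesicles, and Tpbg encodes trophoblast glycoprotein (5T4), a leucine-rich repeat protein of the cell surface that marks a superficial class of granule cells.

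The n14 cells numbered 180 and 113 in control, 38 and 36 in naris-occluded, and 222 and 90 in trained libraries. They held 502189 UMIs in all, between 23574 and 159932 per library, so a level in naris-occluded replicate 2 rests on the fewest molecules. The cells were shallow, with 5% of them under 576 UMIs and 95% under 1028.5, and the deepest held 2880. Whole libraries held 6705 to 10570 annotated cells and 11841160 to 17065083 UMIs. Of the 679 cells, 38 had a barcode that also occurred in another library, and none of these pairs were both n14 cells.

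The n14 cells had GABAergic and granule cell transcripts and stood with the types of highest mitochondrial and lowest Malat1 share. Levels are given in CPM, the UMIs of a gene summed over the cells of a type in a library and scaled so that all genes together make 1000000. Because clusters were made from these same transcripts, levels are set against other types without a test. The comparison types were n07-GC-2, which is nearly as shallow, n12-GC-6, which shares Tpbg, n13-AstrocyteLike, which is closest in depth and mitochondrial share, and n04-Immature.

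Both markers were high in n14. The level of Slc32a1 in n14 was 634 and 796 CPM in control, 875 and 382 in naris-occluded, and 682 and 918 in trained libraries. Tpbg stood at 518 and 519 CPM in control, 423 and 424 in naris-occluded, and 356 and 491 in trained libraries. Tpbg was above the mean of n07 (205 CPM) in every n14 library and above n12 in 5 of 6, while the lowest Slc32a1 value came from the library with the fewest UMIs. Across the 18 types n14 ranked first for Tpbg, ahead of n12 at 410 ± 54.1 CPM (SD, 6 libraries), a gap smaller than the SD of n14 itself. It ranked second for Slc32a1, behind n18-EPL-IN.

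Few cells held a UMI of both markers. After each cell was thinned at random to 500 UMIs, 29.0% of n14 cells had a UMI of Slc32a1 (95% Wilson interval 25.7 to 32.5%), 13.8% one of Tpbg (11.4 to 16.6%), and 5.15% of both (3.73 to 7.08%). Without thinning these shares were 39.6, 20.3 and 8.39%. The thinned shares were 26, 6.51 and 2.27% in n07 and 14.8, 14.3 and 2.11% in n12, so cells with both were few in all 3 granule cell types at this depth. In olfactory sensory neurons (n01-OSNs), which lack both genes, the thinned shares were 2.58, 0.833 and 0% (0 of 1200 cells, upper Wilson bound 0.319%). In n13 they were 4.68, 1.46 and 0.169%. The n14 shares of each gene were above those of n01 and n13, and the intervals cover counting error only. Median depth before thinning was 690 UMIs in n14, 882 in n07, 3533 in n12, 808.5 in n01 and 656 in n13. Without thinning, 37.1% of n12 cells and 6.60% of n07 cells had a UMI of both.

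A fixed rule took the 15 genes with the largest ratio of n14 to the median of the other 17 types, 10 CPM being added to each level, among genes with at least 50 UMIs in n14 that were above that median in all 6 libraries. The minimum was set on n14 itself and so favors genes that are high there, and 6 of the 15 (Gcnt1, Crhbp, Cort, Vipr2, Lamp5 and Gabrd) had a mean under 50 CPM over the 18 types. The genes were Tpbg, Gcnt1, Sema3c, Crhbp, Sema3e, Chrm2, Cort, Vipr2, Lamp5, Kcnj4, Gabrd, Ano3, Syt10, Shisa8 and Penk. The group holds secreted guidance cues (Sema3c and Sema3e), neuropeptides and a peptide-binding protein (cortistatin from Cort, enkephalin from Penk, and Crhbp, which binds corticotropin-releasing hormone), receptors (the muscarinic receptor Chrm2, the VIP receptor Vipr2 and the extrasynaptic GABA-A receptor subunit Gabrd), and the inward rectifier potassium channel Kcnj4. For 9 of the 15 the highest of the other types was n07, and for 4 it was n12.

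**Figure D1:**
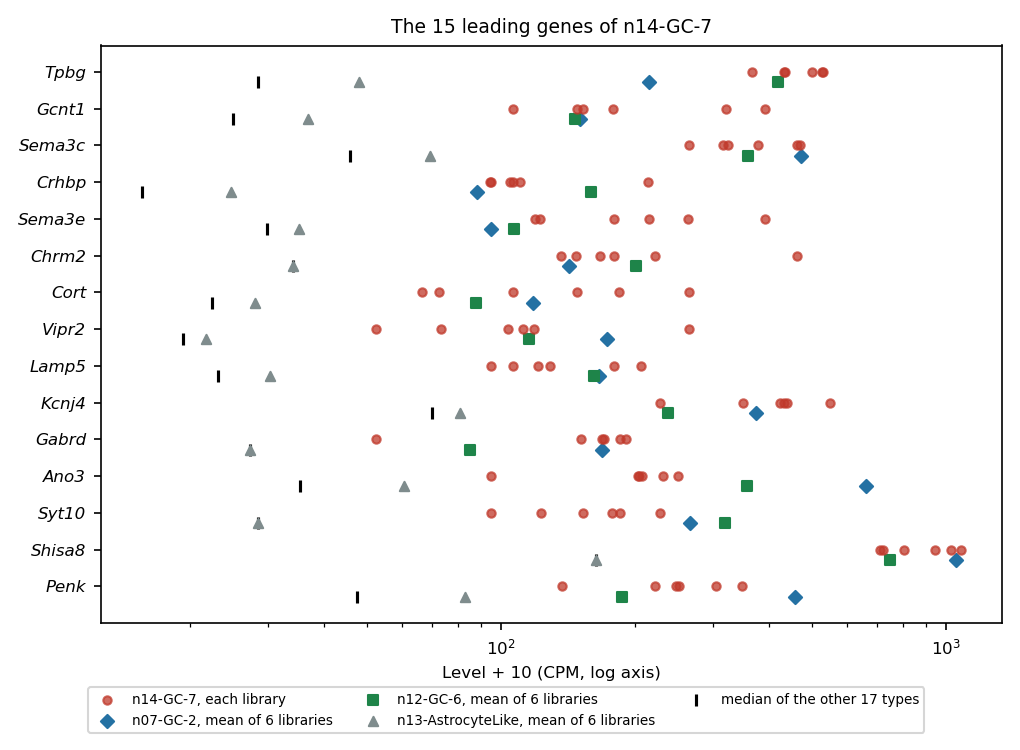
Levels of the 15 leading genes of n14-GC-7, in CPM plus 10 on a log axis. Red points are the 6 libraries of n14, and diamonds, squares and triangles are the means of n07, n12 and n13. The n14 points lie far right of the median of the other 17 types (black ticks) but overlap the means of n07 or n12 for most of the genes.

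Gcnt1, which encodes a glycosyltransferase that branches O-linked glycans, had the largest lead of n14 over the next type. Its level in n14 was 139 and 96.5 CPM in control, 310 and 382 in naris-occluded, and 169 and 142 in trained libraries, against a mean of 140 in n07. The lead was carried by the occluded libraries, and n14 was first of the 18 types in only 3 of the 6. Kcnj4 averaged 393 ± 107 CPM in n14 and 363 ± 40.7 in n07, a difference within the SD of n14. Ano3, of the anoctamin family, averaged 189 ± 54.2 CPM in n14 but 651 in n07, and Syt10, a calcium sensor of vesicle release, 150 ± 47.2 against 257, so these genes were shared with other granule cells and were lower in n14. Sema3e was above the mean of n07 in each n14 library, from 109 CPM in control replicate 1 to 382 in naris-occluded replicate 2.

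Of 1276 genes with at least 50 UMIs in n14, 33 had their highest mean of the 18 types in n14. That number depended on the scale and was 88 without the mitochondrial genome in the total. The minimum was set on n14 itself. Of 3431 genes with a mean of at least 50 CPM over the 18 types, 31 were highest in n14. In CPM over all genes, only the ribosomal protein gene Rps27 was highest there in all 6 libraries. It ranged from 3973 to 5225 CPM, against 3723 ± 267 in n04, the next type. Tpbg and the mitochondrial gene mt-Nd1 were among the genes highest there in 5 of 6. On the log2 levels of the same 1276 genes, the profile of n14 was closest to n07 (Spearman rho 0.801 over genes), then to n18-EPL-IN (0.763) and n17-M/TC-3 (0.738), and least like n04 (0.481). This order depended on the genes used. Over the 3431 genes with a mean of at least 50 CPM over the 18 types, n18 (0.786), n13 (0.758) and n17 (0.737) came before n07 (0.718).

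The 10 genes lowest in n14 against the other types, among those with at least 50 CPM in the median of these types, were Snhg11, Meg3, Pnisr, Kcnq1ot1, Malat1, Mir124a-1hg, Acp1, 5330434G04Rik, Gm26699 and Krit1. Malat1, Meg3 and Kcnq1ot1 are long noncoding RNAs that are retained in the nucleus. In n14 Malat1 stood at 4993 and 4789 CPM in control, 6603 and 18156 in naris-occluded, and 3426 and 2691 in trained libraries, against means of 58040 CPM in n07 and 53159 in n12. Meg3 ranged from 190 to 536 CPM in n14 against 3863 in n07. The groups did not overlap with n07 or n12 in any library. The n13 cells were low as well, at 3955 CPM of Malat1 and 247 of Meg3.

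For gene lists, n14 was compared with another type within each library, and a gene was counted when n14 lay on the same side in all 6. Over all 3431 genes compared, n14 lay above n07 in all 6 libraries for 9.68% and below for 23.4%. Against n12 these shares were 10.9% and 39.3%, against n13 13.6% and 12.9%, and against n04 18.7% and 37.3%. The median log2 ratio over all genes was -0.11 against n07, -0.62 against n12, -0.09 against n13 and -0.36 against n04. With CPM computed without the mitochondrial genome, n14 lay above n07 in all 6 libraries for 15.0% of all genes and below for 17.8%, and above n12 for 16.1% and below for 22.7%. The nuclear long noncoding RNAs lay below n07 and n12 in all 6 libraries for 5 of 5 genes, with medians of -3.56 and -2.98, while against n13 1 of 5 was below and the median was 0.33. Summed over the list, n14 held 7296 CPM, n07 65258, n12 58469 and n13 4438.

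The transcripts of the mitochondrial genome mirrored this. For 12 of 13 genes n14 lay above n07, for 13 of 13 above n12, and for 1 of 13 above n13 and 4 below, with medians of 0.80, 2.17 and 0.01. Their sum in n14 was 298771 CPM, from 272928 to 313527 over the libraries, against 171947 in n07, 64465 in n12, 299533 in n13 and 408443 in n01. The mix of these genes was similar in the granule cell types. Mt-Nd1, a subunit of complex I, made up 11.5 ± 0.696% of mitochondrial UMIs in n14 and 11.4 ± 0.522% in n07, and mt-Co1, of complex IV, 13.5 ± 0.960% and 13.3 ± 1.17%. Sensory neurons had a different mix, with 7.65 ± 0.446% mt-Nd1 and 17.6 ± 1.21% mt-Co1.

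**Figure D2:**
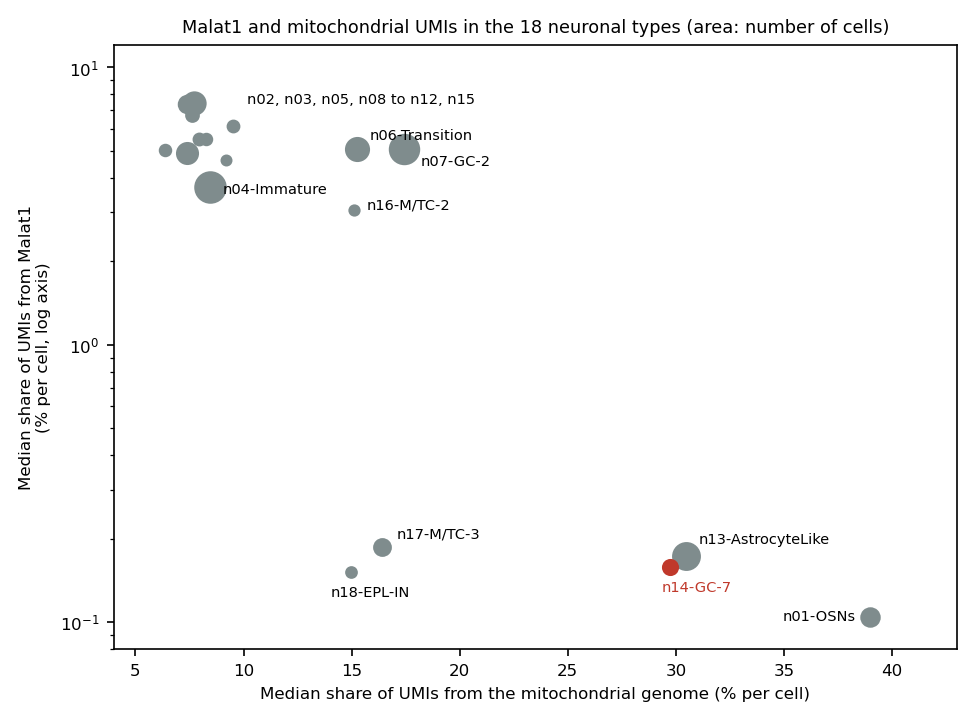
Median Malat1 share of the UMIs of a cell (log axis) against the median mitochondrial share, for the 18 neuronal types, with the point area growing with the number of cells. The n14 point, at 0.158% Malat1 and 29.7% mitochondrial UMIs, lies beside n13 and in the low-Malat1 group with n01, n17 and n18, far from n07 at 5.07% and 17.4%.

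Cell by cell, 94.3% of n14 cells had less than 1% of their UMIs from Malat1, and 26.5% had none. The share under 1% was 96.7% in n13, 97.7% in n01, 79.0% in n17 and 86.3% in n18, but 0.831% in n07, 0.844% in n12 and 11.8% in n04. After thinning to 500 UMIs, 61.3% of n14 cells and 100% of n07 cells had a Malat1 UMI. Shallow types were found on both sides of this gap, since n06-Transition, with a median of 730 UMIs, had 1.44% of cells under 1% Malat1.

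Most genes of GABA handling and of inhibitory synapses did not lie on one side of n07 in all 6 libraries. Of 6 genes for GABA synthesis, packaging and uptake, 1 lay above n07 in all 6 libraries and none below, 3 lay above n12 and 3 below, and 3 above n13. Gad1, the main GABA-synthesizing enzyme, averaged 1152 ± 108 CPM in n14, 1004 in n07, 2344 in n12 and 676 in n13. Of 7 GABA-A receptor subunits, 1 lay above n07, 3 above n12 and 6 above n13, with medians of 0.07, 0.55 and 1.67. Without the mitochondrial genome in the total, 3 of the 6 genes and 2 of the 7 subunits lay above n07. None lay below, and the share of all genes above n07 was then 15.0%.

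Glutamate receptor genes were low against n07. Of 10 genes, 6 lay below n07 in all 6 libraries and none above, with a median of -0.82, while 7 lay above n13. Gria2, the AMPA receptor subunit that limits calcium entry, ranged from 509 to 1050 CPM in n14 and averaged 2795 in n07. Grin2b, an NMDA receptor subunit, ranged from 212 to 1016 CPM and averaged 1863 in n07. Every n14 library was under the n07 mean for both. The kainate receptor subunit Grik3 averaged 121 CPM in n14 and 71.3 in n07, and Gria1 averaged 277 ± 95.7 CPM against 293 in n07, within the SD. As a sum, the list stood at 3279 CPM in n14, 7531 in n07 and 967 in n13.

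Synaptic vesicle genes were split. Of 19 genes, 3 lay below n07 and 1 above, whereas 11 lay below n12 and 1 above. Snap25, a membrane fusion protein, averaged 729 ± 147 CPM in n14, 1008 in n07 and 2803 in n12, and was below both in all 6 libraries. Synaptotagmin 1 (Syt1), the calcium sensor of release, was much closer at 1528 ± 207 against 1756 and 1833. The vesicle protein synaptoporin (Synpr) reached 1386 ± 187 CPM, above n12 (758) in all 6 libraries. Of 19 adhesion genes, 6 lay above n12 and 1 below, and 13 above n13 and none below. Against n07 5 lay below, a share near that of all genes, among them Opcml at 173 ± 66.7 against 480 CPM and Negr1 at 183 ± 28.3 against 514, and 1 above. That gene was Cadm2, at 772 ± 73.4 CPM in n14 and 629 in n07. Of 12 potassium channel genes, 3 lay below n07 and none above, with a share and a median (-0.11) like those of all genes, 2 lay above n12 and 2 below, and 6 above n13 and none below.

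Transcription factors of granule cells and interneurons were lower in n14 than in n07. Of 21 genes, 10 lay below n07 and 10 below n12 in all 6 libraries, 1 above n07 and none above n12, with medians of -0.64 and -1.0. The share below n12 was near that of all genes. Against n13 the median was 0.01, with 1 above and none below. Meis2, a homeobox factor of granule cells, stood at 481 and 615 CPM in control, 367 and 382 in naris-occluded, and 494 and 522 in trained libraries, against means of 1411 in n07 and 2027 in n12. Every n14 library was below both means. Mef2c, an activity-regulated factor, averaged 587 ± 151 CPM against 866 and 2195. The exception was the zinc finger factor Sp8, at 172 ± 49.7 CPM and above n07 (97.1) in each library, although below n12 (369).

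Genes of immature neurons were low in n14 against n04. Of 13 genes, 13 lay below n04 in all 6 libraries, with a median of -3.41. Against n07 2 lay above and 1 below, and against n12 1 above and 3 below. Without the mitochondrial genome in the total, 4 lay above and 1 below against each of n07 and n12. The balance against n12 thus depended on the scale. As a sum, the list stood at 2650 CPM in n14, 2562 in n07, 2834 in n12 and 25069 in n04. A shorter list of 6 markers of immature neurons summed to 511 CPM in n14, 739 in n07 and 972 in n12, with 1 below n07, 3 below n12 and none above. Sox11, a factor of newly made neurons, ranged from 14.6 to 84.8 CPM in n14 and averaged 2085 in n04. Doublecortin (Dcx), a microtubule protein of migrating neurons, ranged from 28.2 to 170 CPM against 324 in n07 and 907 in n04. No n14 library reached the n04 mean for either gene.

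A chosen list of genes for membrane proteins of neurons was higher in n14 than in n12, n13 and n04. Of these 27 genes, 9 lay below n07 and 2 above, whereas 15 lay above n12 and none below. Against n13 27 of 27 lay above, and against n04 25. Atp1b1, a sodium pump subunit, averaged 4931 ± 796 CPM against 4431 in n07, 3500 in n12 and 808 in n13. Of 24 genes for entry into and folding in the endoplasmic reticulum, 1 lay above and 1 below n07, 16 above and 2 below n12, and 20 above and 3 below n13. Hspa5, the chaperone BiP, averaged 499 ± 214 CPM in n14 against 429 in n07, 160 in n12 and 112 in n13. Srp9 and Srp14, which encode parts of the signal recognition particle, lay below both n12 and n13 in all libraries. Without the mitochondrial genome in the total, 19 of the 24 genes lay above n12 and 1 below. Srp9 and Srp14 were thus not both below n12 on that scale. The V-ATPase, the proton pump of vesicles and lysosomes, had 7 of 16 genes below n12 and 3 above, a share below that is near the one of all genes. Without the mitochondrial genome in the total, 6 were below and 5 above. Of 9 genes of the cytosolic V1 sector 6 lay below n12 and none above, and of 7 of the V0 sector and the accessory proteins 1 lay below and 3 above. The V1 genes Atp6v1d, Atp6v1e1 and Atp6v1g2 were lower in n14 in all 6 libraries, at 100 against 344, 228 against 571 and 109 against 518 CPM. The genes above, Atp6v0b, Atp6ap1 and Atp6ap2, stood at 918 against 553, 318 against 128 and 646 against 297 CPM. Atp6v0d1, a V0 gene whose protein has no membrane span, was lower, at 123 against 238 CPM. The split by sector, these genes, Srp9 and Srp14 were singled out after their values were seen. A link with the place of the proteins in the cell was not tested.

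**Figure D3:**
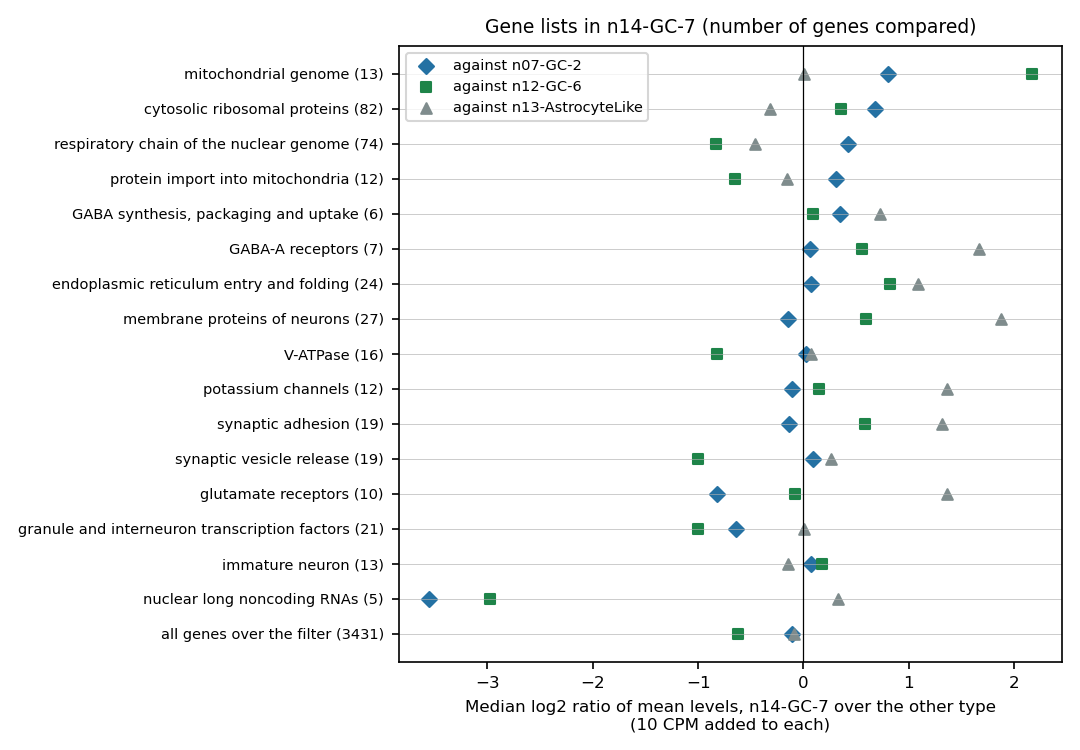
Median log2 ratio of the mean level in n14-GC-7 to that in n07-GC-2, n12-GC-6 or n13-AstrocyteLike (10 CPM added to each) for 16 gene lists and for all genes, with the number of genes compared in brackets. Nuclear long noncoding RNAs lie near -3 against n07 and n12 but above 0 against n13. Genes for membrane proteins of neurons lie near 0 against n07 and at 1.88 against n13.

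Cytosolic ribosomal protein genes lay above n07 for 74 of 82 and below for none, with a median of 0.68, and above n12 for 43. Against n13 the direction was the opposite, with 44 below and 2 above. Nuclear genes of the respiratory chain lay above n07 for 34 of 74 and below for 3, but below n12 for 56 and above for none, and below n13 for 34 and above for 2. When CPM was computed without the mitochondrial genome, the median of all genes moved to 0.10 against n07 and -0.27 against n12. The nuclear long noncoding RNAs were still below both types for 5 of 5 genes, transcription factors were below for 8 and 7 of 21, and ribosomal protein genes above for 76 and 66 of 82. Nuclear respiratory chain genes were then above n07 for 44, and below n12 for 35 and above for 5. Synaptic vesicle genes then had 2 above and none below n07, and genes for membrane proteins of neurons 5 above and 3 below. Those counts of lower genes against n07 thus depended on the scale. Against n07 the medians of potassium channel and adhesion genes also changed sign with this scale, to 0.11 and 0.08.

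Genes earlier listed by the study as enriched in n14 were chosen on these cells and are no independent evidence. Of 11, 4 lay above n07 in all 6 libraries, 8 above n12, 6 above n13 and 7 above n04. The genes above n07 included Rps27, Cadm2 and the ribosomal protein gene Rps19, at 2573 ± 339 CPM. Scd2, a fatty acid desaturase, was highest in n14 of the 18 types at 805 ± 192 CPM, within 1 SD of n18 at 697. Mgst3, a microsomal glutathione transferase, was below n12 in all 6 libraries, at 352 ± 87.0 against 716 CPM. Of 9 glutathione transferase and peroxidase genes, 4 lay above n07 and none below, 3 above and 5 below n12, and 7 below n13. Without the mitochondrial genome in the total, 7 lay above n07, and 3 above and 2 below n12, so the balance against n12 depended on the scale, and the share below n12 was then near that of all genes.

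Of 21 genes that mark granule and periglomerular subtypes, 5 lay above n07 and 3 below, and 5 above n12 and 5 below, with medians of 0.01 and 0.27. Calb2 (calretinin) averaged 408 ± 190 CPM in n14 and 13129 in n03-GC-1, and Th, the enzyme that begins dopamine synthesis, 37.9 ± 25.5 against 1277 in n05-PGC-2. Calb1 (4.27 CPM) and Reln (19.3 CPM) were near 0. No UMI of Sst was counted, which allows a level of up to 5.97 CPM in the 502189 UMIs of n14. Pcp4, which binds calmodulin, averaged 1928 ± 299 CPM, below n12 (5149) in all 6 libraries and above n07 (1439) in all 6. Immediate early genes were lower in n14 than in n12. Of 5 compared, none lay above any of the 4 types in all 6 libraries, and 4 lay below n12, against 1 below n07 and none below n13. Their sum was 521 ± 149 CPM in n14, 611 ± 185 in n07 and 1181 ± 360 in n12. Junb averaged 32.9 ± 26.5 CPM against 106 in n12.

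Markers of other cell types were present in n14. The sums of 8 of 9 lists lay between the means of n07 and n13, and that of the endothelial markers, at 329 CPM, was above both (229 and 322). Summed astrocyte markers ranged from 2229 to 3848 CPM in n14, against means of 1850 in n07, 602 in n12 and 5211 in n13. Oligodendrocyte markers averaged 2796 CPM against 1770, 563 and 5648, and sensory neuron markers 2481 against 1606, 475 and 4616. Summed ensheathing markers ranged from 3051 to 5006 CPM, microglia markers from 158 to 406, endothelial markers from 113 to 679, mural markers up to 255, and red blood cell markers from 56.3 to 593. Mitral and tufted markers ranged from 31.7 to 133. The markers at 0 in n14 were Kcnj8 of mural cells and Alas2 of red blood cells. Their part in the levels above was not tested.

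Most n14 cells formed 1 cluster of the whole bulb. In the annotation of all cells, 585 of 679 (86.2%) had been placed in neuron cluster N7, whose 664 cells were 88.1% n14, and 47 in N6. The 585 cells of N7 had 766 CPM of Slc32a1, 490 of Tpbg and 3117 of Malat1. The 47 cells of N6 had 242, 182 and 6021 CPM and more Ptgds, a prostaglandin synthase (3540 against 1373). The remaining 47 cells had 588, 269 and 22723 CPM and a median mitochondrial share of 23.2% against 30.1%. The share of n14 from N7 ranged from 69.4% in naris-occluded replicate 2 to 93.3% in trained replicate 2.

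The n14 cells were a smaller share of adult-born neurons after naris occlusion. They made up 5.62% (95% Wilson interval 4.87 to 6.47) and 5.07% (4.24 to 6.06) in control, 1.63% (1.19 to 2.23) and 1.23% (0.890 to 1.70) in naris-occluded, and 6.65% (5.86 to 7.55) and 3.96% (3.23 to 4.84) in trained libraries. The occluded libraries lay under the other 4 with no overlap of intervals, which cover counting error only. The trained libraries lay on either side of the controls. The log2 change of the share was -1.91 ± 0.36 (SE) for occluded against control (adjusted p = 6.0e-05 by edgeR's quasi-likelihood test with Benjamini-Hochberg adjustment over 12 types), 1.91 ± 0.36 for trained against occluded (adjusted p = 5.9e-05) and -0.0011 ± 0.32 for trained against control (adjusted p = 0.997). In these 3 comparisons 8.33, 25.0 and 0.0% of the 12 types were called. An exact two-sided permutation test of 2 libraries against 2 cannot go below the p of 0.33 that occluded against control gave.

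**Figure D4:**
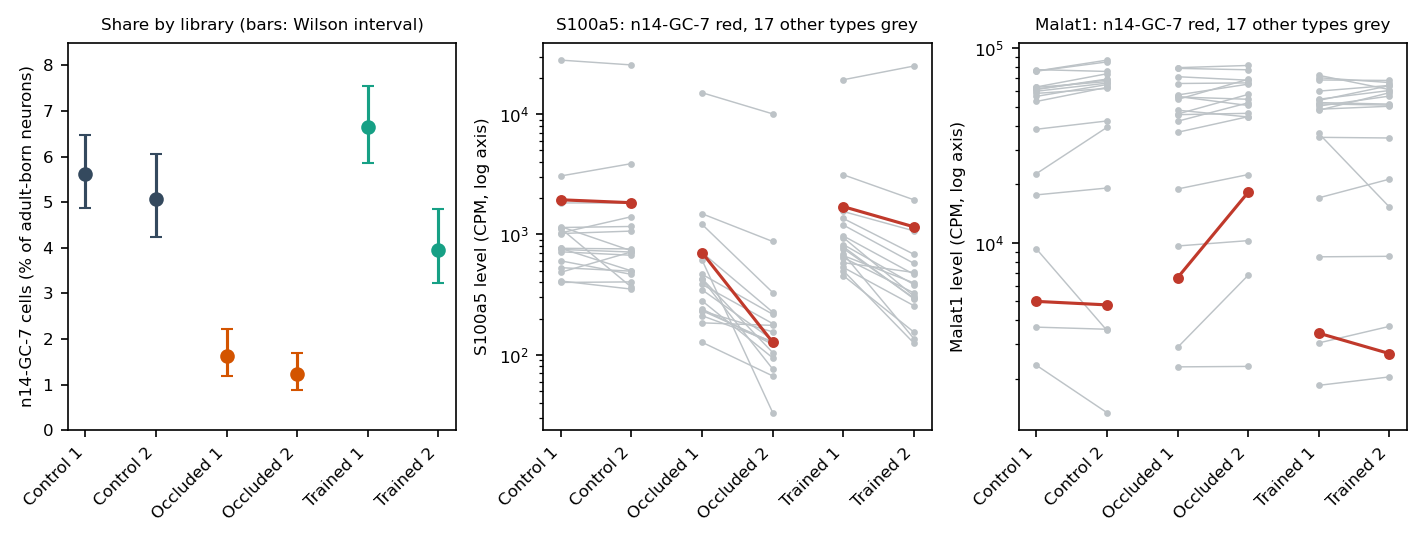
Left, n14-GC-7 cells as a percentage of adult-born neurons in each library with 95% Wilson intervals. Middle and right, levels of S100a5 and Malat1 (CPM, log axes) in n14 (red) and the 17 other types (grey), with lines joining the libraries of a condition. S100a5 is lower in both occluded libraries than in both controls in 15 of 18 types, while Malat1 in n14 is high in naris-occluded replicate 2.

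Other measures of the libraries went with the change in share only in part. Among neurons other than n14, the share with under 1% Malat1 was 29.6 and 29.5% in control, 21.4 and 15.0% in naris-occluded, and 37.2 and 20.2% in trained libraries, and their median mitochondrial share was 15.2 and 15.0, 11.4 and 8.76, and 17.6 and 12%. The n13 cells were 15.0 and 13.4, 8.45 and 5.89, and 23.8 and 7.81% of neurons. In all 3 measures the occluded libraries were below the controls, and trained replicate 1 was highest. Trained replicate 2 stood near naris-occluded replicate 1 in all 3, but its n14 share was 3.96% against 1.63%. Among non-neuronal cells the share with under 1% Malat1 was 26.4 and 28.8% in control and 26.7 and 18.9% in naris-occluded libraries. In trained libraries it was 37.1 and 32.3%. The part of these measures in the change was not tested. Within adult-born neurons that had under 1% Malat1, n14 was 58.8 and 53.3% in control, 27.4 and 23.4% in naris-occluded, and 55.5 and 48.3% in trained libraries, a log2 change of -1.15 ± 0.22 for occluded against control (edgeR adjusted p = 1.0e-04). Trained against occluded was 1.06 ± 0.22 there (edgeR adjusted p = 3.6e-04) and 0.83 ± 0.17 within adult-born neurons of at least 20% mitochondrial UMIs (edgeR adjusted p = 0.0326). Within the latter the change for occluded against control was -0.75 ± 0.16 and lost the call (edgeR adjusted p = 0.053), as it did without naris-occluded replicate 2 (-1.72 ± 0.45, edgeR adjusted p = 0.112).

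Within n14 neither marker gave a called change between conditions, and the groups overlapped in mitochondrial share. The median mitochondrial share of n14 was 30.2 and 31.5% in control, 30.5 and 28.2% in naris-occluded, and 28.7 and 31.2% in trained libraries, with all groups overlapping (exact two-sided permutation p = 0.667 for each of the 3 comparisons). With 2 libraries against 2 this test cannot go below 0.33, so it does not show that the share was stable. Slc32a1 changed by -0.08 ± 0.33 on the log2 scale and Tpbg by -0.29 ± 0.32 between occluded and control libraries (edgeR adjusted p = 0.987 and 0.962). The Tpbg levels of the occluded and trained libraries were all below the controls, and those of Slc32a1 overlapped. Trained against control gave 0.10 ± 0.25 and -0.40 ± 0.23 (edgeR adjusted p = 0.990 and 0.870).

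Few genes changed within n14. Of 1139 genes tested on counts summed per library, edgeR's test called 2 for occluded against control (0.176%), none for trained against control (0.0%, with 60 genes at an unadjusted p under 0.05) and 1 for trained against occluded (0.0878%). DESeq2, run on 12594 genes without the filter on low counts, called none in the 3 comparisons. In counts simulated for occluded against control, 200 of the 1139 genes were changed. The same test recovered 26.5% of genes changed by 1 on the log2 scale and 79.0% of those changed by 2. Smaller changes were thus mostly not detectable in that comparison. With fewer changed genes the adjustment is stricter, so recovery in the real counts may be lower. The other comparisons were not simulated.

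S100a5, a calcium-binding protein known from olfactory sensory neurons, was lower after occlusion. Its level in n14 was 1939 and 1834 CPM in control, 705 and 127 in naris-occluded, and 1701 and 1156 in trained libraries, from 266, 152, 25, 3, 272 and 73 UMIs. Both occluded libraries lay below the other 4. The log2 change was -2.02 ± 0.36 (edgeR adjusted p = 0.0137) for occluded against control and 1.62 ± 0.37 for trained against occluded (edgeR adjusted p = 0.129). Without the filter on low counts the latter was 2.07 and called (edgeR adjusted p = 1.5e-06). S100a5 was not particular to n14. Both occluded libraries lay below both controls in 15 of 18 types, and in sensory neurons (n01) it stood at 28031 and 25567 CPM in control and 15027 and 10026 in occluded libraries. The 4 other sensory neuron markers summed in n14 to 1334 and 1472 CPM in control, 677 and 1400 in naris-occluded, and 1319 and 1219 in trained libraries, so that only naris-occluded replicate 1 lay below the rest. Gng13, a G protein subunit that made up most of this sum, changed by -0.42 ± 0.28 (edgeR adjusted p = 0.948). In n01, however, Gng13 was not lower after occlusion, unlike S100a5. It stood there at 17203 and 18839 CPM in control and 18987 and 24941 in occluded libraries. The part of sensory neuron RNA in the S100a5 change was not tested. Among n14 cells of cluster N7 the change was -1.87 ± 0.38 and was not called (edgeR adjusted p = 0.118), nor was it among cells with under 30% mitochondrial UMIs (-2.24 ± 0.63, edgeR adjusted p = 0.480). Without naris-occluded replicate 2 it was -1.45, and without replicate 1 it was -4.07, each with only 1 occluded library left.

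Malat1 was the other called gene, and few cells held most of its UMIs in the occluded and the control libraries. It was higher in occluded than in control libraries by 1.33 ± 0.27 on the log2 scale (edgeR adjusted p = 0.0441) and lower in trained than in occluded libraries by a log2 change of -2.02 ± 0.28 (edgeR adjusted p = 4.0e-04). In naris-occluded replicate 2, 4 of the 36 cells held 371 of 428 Malat1 UMIs, and in replicate 1 4 of 38 held 190 of 234. Cells chosen in the same way had at least 1% of their UMIs from Malat1. In control libraries 9 of 180 and 8 of 113 cells held 60.4 and 61.0% of Malat1 UMIs. In trained libraries 10 of 222 and 4 of 90 held 48.0 and 40%. Being chosen on Malat1, such cells hold much of it in any library. Without naris-occluded replicate 2 the changes were 0.40 ± 0.19 (edgeR adjusted p = 0.797) and -1.08 ± 0.19 (edgeR adjusted p = 2.0e-05). Among n14 cells of cluster N7 Malat1 was at 4301 and 2961 CPM in control, 3252 and 4033 in naris-occluded, and 2229 and 2750 in trained libraries. There the changes were -0.048 ± 0.22 and -0.53 ± 0.23, neither of them called (edgeR adjusted p = 0.991 and 0.870). The call for occluded against control was also lost without the filter on low counts (0.80 ± 0.22, edgeR adjusted p = 0.447), without the mitochondrial genome (1.32 ± 0.29, edgeR adjusted p = 0.0677) and among cells with under 30% mitochondrial UMIs (1.5 ± 0.33, edgeR adjusted p = 0.231).

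Between replicates 2 and 1, which differ in the sex of the pools, 2 of 935 genes tested were called (0.214%). Ptgds was lower in replicate 2 by a log2 change of -1.58 ± 0.27 (edgeR adjusted p = 5.6e-04). The value rested on control replicate 1, at 4540 TMM-scaled CPM against 663 to 1811 in the other 5 libraries, and without that library it was -0.59 ± 0.33 (edgeR adjusted p = 0.997). Without control replicate 2 it was -0.60 ± 0.36 (edgeR adjusted p = 0.997), and among cells with under 30% mitochondrial UMIs it was not called either (-1.81 ± 0.59, edgeR adjusted p = 0.736). DESeq2, run on 12594 genes, called 1 gene, which was higher in replicate 2, and so did not call Ptgds. The other was Rpl9-ps6, a ribosomal pseudogene whose reads cannot be told from its parent gene with certainty. It was higher in replicate 2 by 1.42 ± 0.32 (edgeR adjusted p = 0.0345). The occluded libraries of n14 went the other way, with 169 CPM in replicate 1 and 127 in replicate 2 from 6 and 3 UMIs. Rpl9-ps6 was not particular to n14. It was higher in replicate 2 of each condition in n04, n07, n12 and n13 too, though not in n05. It lost the call without either control library or either trained library, with values from 0.87 to 1.57 (edgeR adjusted p from 0.790 to 0.997), as it did without the filter on low counts (1.23, edgeR adjusted p = 0.428) and among n14 cells of cluster N7 (1.22, edgeR adjusted p = 0.148).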

How the data were processed

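RNA of olfactory bulb cells was measured in 6 libraries with the droplet-based 10x Chromium Single Cell 3′ v2 chemistry. Per the labels, the authors aligned reads to mm10 and counted UMIs with Cell Ranger 2.0.0, and the deposited table holds these raw UMI counts per gene and barcode. The authors clustered cells with Seurat 2.2.1, removed doublets, and deposited annotations with the library, the cluster and, for each cell, the mitochondrial fraction of its UMIs. Cluster names were used as deposited. The library was taken from the annotation's library column, since in both trained libraries the prefixes of the cell names are swapped relative to it (312 n14 cells). In 49 n14 cells the summed counts differed from the annotated UMI total, and the counts were used.

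Counts were summed per type and library (R 4.3.3, Python 3.11.15) and scaled to CPM, a total of 1000000 over all genes. Gene lists were compared between types over genes with a mean of at least 50 CPM over the 18 types, as log2 ratios with 10 CPM added, which understates the ratios of low genes. No test was made between types, because clusters were built from the same genes. Between conditions, sums were tested with edgeR 4.0.16 (quasi-likelihood test with TMM factors and filterByExpr, fitted on all 6 libraries, Benjamini-Hochberg adjustment at 0.05). Numbers of cells were tested with edgeR over 12 adult-born types, offset by each library's total of adult-born neurons. The test was tested on simulated data with 200 changed genes among 1139. Wilson intervals cover counting error only. With 2 pools per condition, p-values measure the spread between these pools. Named genes are the markers, genes listed by the study for n14, fixed gene lists, and the 15 highest genes (at least 50 UMIs in n14) and 10 lowest genes (at least 50 CPM in the median of the other types) against that median. The cells, gene lists and tests were chosen with earlier results of these data known. The alternatives were other scales, filters, cells and denominators, DESeq2 1.42.0, a replicate block and leaving out each library. Those restricted to cells of cluster N7 or of low Malat1, or to CPM outside Malat1, were added after seeing the data. The authors' log-normalized table was not used. Some named genes are not reported here.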

Additional observations from a re-analysis of the deposited data

How the results depend on the processing

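The depth of n14 limited its levels, since a level of 100 CPM in naris-occluded replicate 2 is a matter of very few UMIs. The lower n14 share after occlusion kept its direction under every alternative run, from -0.75 in adult-born neurons with at least 20% mitochondrial UMIs (edgeR adjusted p = 0.053) to -2.12 without naris-occluded replicate 1. Leaving out 1 library at a time gave -2.12 to -1.72 for occluded against control, with the call lost only without naris-occluded replicate 2 (edgeR adjusted p = 0.112), and 1.48 to 2.23 for trained against occluded. The latter lost its call in adult-born neurons with under 1000 UMIs (1.44, edgeR adjusted p = 0.0698), and was 0.83 with at least 20% mitochondrial UMIs and 1.06 with under 1% Malat1, both called. Trained against control, never called, ran from -0.44 to 0.31 without 1 library, and its sign turned with all annotated cells as denominator (0.0853), at least 20% mitochondrial UMIs (0.0846), TMM factors (0.0725), DESeq2 (0.112), a chi-square test on pooled cells (0.0439), without control replicate 1 (0.0746) and without trained replicate 2 (0.313). The cause was not tested.

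The numbers of called genes moved. Leaving out 1 library leaves only 1 in its condition, so the spread then comes from the other conditions. Leaving out 1 library gave 1 to 5 genes for occluded against control, 0 to 3 for trained against control, 1 to 8 for trained against occluded and 0 to 4 between replicates. For occluded against control 1 gene was called without the mitochondrial genome, and none among cells with under 30% mitochondrial UMIs, among cells of cluster N7 or by DESeq2. Without a filter on low counts the other comparisons gave 1, 4 and 4 genes. Cells of N7 gave none for trained against occluded and 1 between replicates, where under 30% mitochondrial UMIs gave none and DESeq2 gave 1. DESeq2 gave none for trained against occluded. The Malat1 change after occlusion turned to -0.048 in cells of N7. Malat1 was also called lower in trained than in control libraries without naris-occluded replicate 1 (-0.68) or 2 (-0.68). S100a5 was called higher in trained than in occluded libraries without control replicate 1 (1.71), control replicate 2 (1.72), naris-occluded replicate 1 (3.69) or trained replicate 2 (1.95), without the filter on low counts (2.07) and with a replicate block (1.64, edgeR adjusted p = 2.0e-04).

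Libraries with the same replicate number did not deviate together over genes (correlations of 0.0615, 0.0827 and 0.0628), so the numbers were not taken as pairs. With a replicate block the share changed by -1.91 for occluded against control, -0.0368 for trained against control and 1.87 for trained against occluded, and 2, 1 and 2 genes were called. For the median mitochondrial share, occluded minus control was 0.366 and -3.24 percentage points within replicate numbers 1 and 2.

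Without the mitochondrial genome in the total, n14 had 1024 CPM of Slc32a1, 650 of Tpbg and 88 genes with their highest mean of the 18 types, and without Malat1 as well 1032, 656 and 79. In the control libraries alone, 202 listed genes lay above n12 and 248 above n07, against 134 and 150 in all 6 libraries. Fewer libraries make the count easier to meet. Over all 3431 genes compared, 10.9% lay above n12 and 9.68% above n07 in all 6 libraries. That share was not taken in the control libraries alone, so these numbers do not show an excess of listed genes. The unthinned shares of cells were 39.6% for Slc32a1, 20.3% for Tpbg and 8.39% for both, and thinning to 300 UMIs outside the mitochondrial genome gave 25.4% for Slc32a1. No n12 cell had 500 to 1000 UMIs, so that alternative gave no value for n12. Among the alternatives that left out no library, 104 values were rated as unchanged. Tested changes counted so if they kept their direction and side of the threshold. Numbers of genes had to stay within a fixed factor of the main number, and levels within the spread between libraries. The rest moved, lost or gained a call, or changed sign. The 104 include the restriction to n14 cells with at least 500 UMIs, which left out no cell and so repeated the main values.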

Other observations

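Other gene groups of n14 were compared with n07 and n12 in the same way. Of 12 stress genes, 7 lay below n12 in all 6 libraries and 1 above, while 1 lay below n07 and 1 above. Without the mitochondrial genome in the total, 3 lay below n12 and 1 above, and none below n07 and 3 above. The share below n12 was then near the 22.7% of all genes. The cytosolic chaperone Hspa8 averaged 736 ± 329 CPM in n14 and 1406 in n12, and Hspa5 of the endoplasmic reticulum was the 1 gene above n12. Bax, which permeabilizes mitochondria during apoptosis, averaged 92.7 ± 35.2 CPM in n14. With CPM over all genes it was below n07 (153) and n12 (172) in each library. Of 12 genes for protein import into mitochondria, which are encoded in the nucleus, 5 lay below n12 and none above, a share near the 39.3% of all genes, and 2 lay above n07 and 1 below. Without the mitochondrial genome in the total, 2 were below n12 and 4 above n07. Timm8b averaged 331 ± 70.3 CPM in n14, 226 in n07 and 562 in n12. Of 7 genes for lipid desaturation, elongation and sterol synthesis, 3 lay above n12 and none below, and none lay on one side of n07 in all 6 libraries. These are descriptions of clusters, with no test.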
